A study of Caenorhabditis elegans with 6 samples.

Results

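The genes described here encode the proteins of the muscle sarcomere and of its attachment to the body wall in *Caenorhabditis elegans*. They were chosen by name, as genes of thick filaments, thin filaments, dense bodies and M-lines, and no measured value entered the rule. The choice was made with earlier results of these data known. The list held 38 genes, of which 37 were among the 18889 genes with a probe on the array and 32 among the 7989 that could be tested. A spot is called unmarked here when the image software left it without a mark for poor quality, and the test asked for 2 or more such spots per dye orientation.

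Nematode body wall muscle is obliquely striated. Thick filaments of myosin wound around a paramyosin core are held at M-lines, and thin filaments of actin, tropomyosin and troponin are anchored at dense bodies, which are the nematode counterpart of Z-discs. Both structures sit on integrins in the muscle membrane, and the integrins bind perlecan in the basement membrane, so that force passes through the hypodermis to the cuticle. Pharyngeal muscle has its own set of myosin heavy chains and troponins.

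The study asked how the transcriptome of nematodes responds to the organophosphorus pesticides chlorpyrifos (CPF) and diazinon (DZN), which inhibit acetylcholinesterase and so act at the synapses that drive these muscles. The 6 arrays described here set nematodes grown on both compounds together, the low dose mixture (LDM), against control nematodes. All animals were of the wild type strain N2, started on the agar as synchronized eggs at 16 °C with *Escherichia coli* OP50 as food, and were collected whole after 72 h at the L3/L4 stage, with several dishes pooled into each sample. The LDM samples had 0.5 of CPF and 1 of DZN in the agar, which the labels give in mg/ml and the methods in mg/l, and the controls had the solvent, acetone, alone. The LDM sample was labelled with Cy5 on 3 arrays and with Cy3 on the other 3, and the arrays are called here Cy5 replicates 1 to 3 and Cy3 replicates 1 to 3, after the dye of the LDM sample. Every value is a log2 ratio of LDM over control, so a positive value stands for more signal with the LDM. RNA came from whole nematodes, and fewer muscle cells or less RNA per muscle cell cannot be told apart in it.

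The arrays were not alike. Unmarked spots made up 37.6 to 41.9% of gene spots with LDM in Cy5 and 56.5 to 61.4% with LDM in Cy3. The ratios of Cy5 replicates 2 and 3 were opposed, with r = -0.35 over 8012 unmarked gene probes and r = -0.23 over all 22490 gene probes. Their direction was taken from the dyes in the labels. The recomputed ratios followed the authors' series table on every array with r from 0.97 to 0.99. That table holds ratios of the same arrays, so it cannot show whether the samples or labels of an array were exchanged. The headers of the scanner output give the control channels of Cy3 replicate 1 and Cy5 replicate 3 the same number, 1. Whether it stands for 1 shared control extract is not known.

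No sarcomere or attachment gene passed the test for an LDM effect in either direction. With limma, a linear model of each gene over the 6 arrays with a term for the dye, 0 of the 32 tested members were higher at a Benjamini-Hochberg adjusted p under 0.05, against 0.313% of all 7989 genes tested. Likewise 0 were lower, against 0.0626% of all genes. At an unadjusted p under 0.05, 0 members were higher, against 4.41% of all genes, and 1 was lower, against 4.92%. The rank product, the study's own test, called 0 members higher and 0 lower, against 1.34% and 0.488% of all genes. With so few genes called, a count of 0 among 32 is close to the background.

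The fitted log2 ratios of the members were small and mostly just below 0. They ran from -0.43 for *unc-97* to 0.19 for *tni-1*, and 30 of 32 lay within 0.25 of 0. Of the 32, 27 were below 0, which is 84.4%, against 55.1% of all genes tested, and the median was -0.10 against -0.03. These values moved with single arrays. Without Cy5 replicate 3 the median was -0.01 and 17 of 31 tested members were below 0, without Cy3 replicate 3 it was -0.05 with 22 of 32 below 0, and without Cy5 replicate 2 it was -0.19 with 25 of 31 below 0. With median centring of the arrays in place of loess, 19 of 32 were below 0. The 95% intervals of 31 members included 0, the lowest bound being -0.80, for *tni-4*, and the highest 0.57, for *unc-22*.

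**Figure D1:**
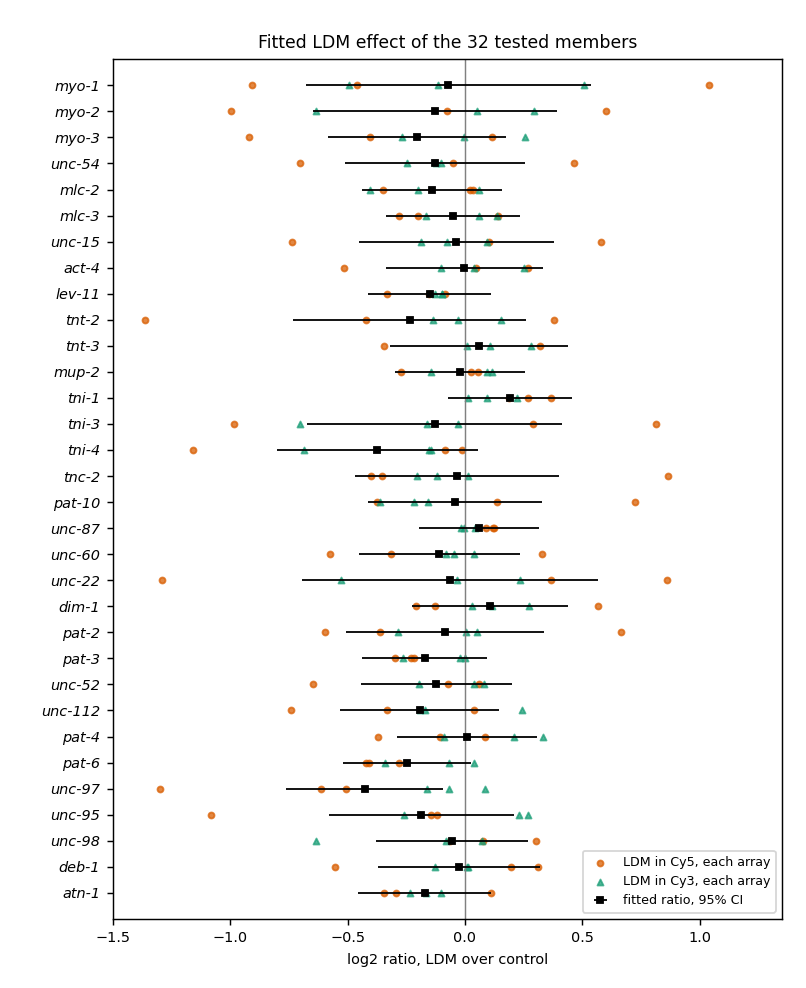
Log2 ratio of LDM over control (horizontal axis) of the 32 tested members, with 1 gene per line in order of role. Black squares and bars are the ratio fitted by limma and its 95% interval, circles the single arrays with LDM in Cy5 and triangles those with LDM in Cy3. The fitted ratios lie between -0.43 and 0.19, and the interval of *unc-97* alone leaves out 0.

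Myosin heavy chains are the motors of the thick filament. The body wall has MYO-3, in the middle of each filament, and UNC-54, the major chain, while MYO-1 and MYO-2 are pharyngeal. All 4 genes were tested and all 4 fitted ratios were just below 0, between -0.20 for *myo-3* and -0.07 for *myo-1*, with standard errors from 0.16 to 0.26. The ratio of *unc-54* was -0.05, 0.47 and -0.70 on Cy5 replicates 1, 2 and 3 and -0.25, -0.12 and -0.10 on Cy3 replicates 1, 2 and 3. The body wall chain was thus above 0 on Cy5 replicate 2 alone, and its fitted ratio was -0.13 (standard error 0.17, n = 6, adjusted p = 0.861 from limma). The ratio of *myo-2* was -0.08, 0.60 and -0.997 with LDM in Cy5 and 0.05, 0.29 and -0.64 with LDM in Cy3, so that its arrays were evenly divided between the signs. The fit gave *myo-2* a ratio of -0.13 as well (standard error 0.22, n = 6, adjusted p = 0.909 from limma). The widest span among the heavy chains was that of *myo-1*, from -0.91 on Cy5 replicate 3 to 1.04 on Cy5 replicate 2, and *myo-3* ran from -0.92 to 0.26.

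Myosin light chains stabilize the lever of the motor. The regulatory chains MLC-1 and MLC-2 are near-identical paralogs, and MLC-3 is the essential chain. The probe of *mlc-1* gave signals of 163 to 191 in both channels of all arrays and had no unmarked spot. For *mlc-2* the ratios were 0.02, 0.03 and -0.35 with LDM in Cy5 and -0.20, 0.06 and -0.40 with LDM in Cy3, with a fitted ratio of -0.14 (standard error 0.13, n = 6, adjusted p = 0.797 from limma). For *mlc-3* they were -0.28, 0.14 and -0.20 with LDM in Cy5 and 0.06, 0.14 and -0.17 with LDM in Cy3, with a fitted ratio of -0.05 (standard error 0.12, n = 6, adjusted p = 0.944 from limma). Neither gene stood apart from 0 beyond the spread between arrays. Both probes had 10% or more of their pixels at the ceiling of the scanner on all 3 arrays with LDM in Cy3, up to 51%, and that of *mlc-2* had 50% on Cy5 replicate 2 too, so the ratios there are limited by the scanner.

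Paramyosin, encoded by *unc-15*, forms the core of the thick filament. Its ratios were 0.10, 0.58 and -0.74 with LDM in Cy5 and -0.07, 0.09 and -0.19 with LDM in Cy3. They changed sign between arrays as those of *unc-54* and *myo-2* did, and the fitted ratio was -0.04 (standard error 0.18, n = 6, adjusted p = 0.977 from limma). UNC-45, the chaperone that folds the myosin head, had 2 probes with 3 and 4 unmarked spots, too few in the Cy5 orientation for a test. On the 3 arrays with LDM in Cy3 the unmarked ratios of *unc-45* were 0.42, 0.26 and 0.06 for 1 probe and 0.46, 0.10 and -0.02 for the other.

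Actin and tropomyosin make up the thin filament. The fitted ratio of *act-4*, an actin of muscle, was 0.00 (standard error 0.14, n = 6, adjusted p = 0.998 from limma), from array ratios of 0.05, 0.27 and -0.51 with LDM in Cy5 and 0.04, 0.25 and -0.10 with LDM in Cy3. That probe had 50% of its pixels at the ceiling on Cy5 replicate 2. The second tested probe of *act-4* was below 0 on 6 of 6 arrays with a mean of -0.23, and leaving out saturated spots gave the gene a ratio of -0.24 (unadjusted p = 0.136, adjusted p = 0.696 from limma). The coding sequence of *act-4* is close to those of the other actin genes, and its probes may also bind their transcripts. The brightest probe of *lev-11*, the tropomyosin gene, gave -0.08, -0.15 and -0.33 with LDM in Cy5 and -0.10, -0.13 and -0.10 with LDM in Cy3. It was below 0 on 6 of 6 arrays, with a fitted ratio of -0.15 (standard error 0.11, n = 6, adjusted p = 0.75 from limma), but the mean over all 6 of its probes had a ratio of 0.08, and leaving out saturated spots gave 0.13. That probe had 10% or more of its pixels at the ceiling on 4 arrays.

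Troponin places the calcium switch on the thin filament. Its troponin T subunits bind tropomyosin, its troponin I subunits block the myosin sites and its troponin C subunits bind calcium. Of 9 troponin genes listed, 8 were tested, and their fitted ratios ran from -0.37 to 0.19 with a median of -0.04. This is the role with the widest difference between its members.

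Among the troponin I genes, *tni-1*, *unc-27* and *tni-3* serve the body wall and other non-pharyngeal muscle and *tni-4* the pharynx. The ratios of *tni-1* were 0.19, 0.27 and 0.36 with LDM in Cy5 and 0.22, 0.09 and 0.01 with LDM in Cy3. It was the 1 member above 0 on all 6 arrays, a pattern of 2.43% of all genes measured on every array, and its fitted ratio was 0.19 (standard error 0.11, 95% interval -0.07 to 0.45, adjusted p = 0.679 from limma). The ratios of *tni-3* were 0.29, 0.82 and -0.98 with LDM in Cy5 and -0.16, -0.03 and -0.70 with LDM in Cy3. With arrays on both sides of 0, the fit gave *tni-3* a ratio of -0.13 (standard error 0.23, n = 6, adjusted p = 0.913 from limma). The ratios of *tni-4* were -1.16, -0.01 and -0.09 with LDM in Cy5 and -0.15, -0.15 and -0.68 with LDM in Cy3. All 6 were below 0, and its fitted ratio of -0.37 was the second lowest of the members (standard error 0.18, 95% interval -0.80 to 0.05, adjusted p = 0.594 from limma). Without Cy5 replicate 1 the ratio of *tni-4* was -0.19. Its probe had 50% of its pixels at the ceiling on Cy3 replicates 1 and 2. With *lev-11*, *tni-4* was 1 of 2 members below 0 on every array, which is 6.45% of the 31 measured on all 6, against 3.25% of all genes.

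The probe of *unc-27* was unmarked on 4 arrays and could not be tested. There its ratios were -0.28, -0.04 and -0.34 on Cy5 replicates 1, 2 and 3 and -0.20 on Cy3 replicate 3, with signals of 32377 to 61078 in both channels. On Cy3 replicates 1 and 2 the same probe gave 200 to 258 in both channels. A bright body wall gene was thus read near background by both dyes on 2 of the 6 arrays.

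The troponin T genes are *tnt-2*, *tnt-3* and *mup-2*. The ratios of *tnt-2* were -0.42, 0.38 and -1.36 with LDM in Cy5 and -0.14, -0.03 and 0.15 with LDM in Cy3. The value on Cy5 replicate 3 was the lowest of any member on any array, yet the 6 arrays together gave *tnt-2* a ratio of -0.24 (standard error 0.21, n = 6, adjusted p = 0.795 from limma). The ratios of *tnt-3* spanned -0.34 to 0.32 over its 5 unmarked arrays and those of *mup-2* spanned -0.27 to 0.12, with fitted ratios of 0.06 and -0.02.

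Troponin C is encoded by *pat-10* in the body wall and *tnc-2* in the pharynx. The ratios of *pat-10* were 0.13, -0.37 and 0.72 with LDM in Cy5 and -0.22, -0.36 and -0.16 with LDM in Cy3. Those of *tnc-2* were -0.40, -0.35 and 0.86 with LDM in Cy5 and -0.20, -0.12 and 0.01 with LDM in Cy3. Both genes were highest on Cy5 replicate 3, where *tnt-2*, *tni-3* and the heavy chains were lowest. The fitted ratios were -0.04 for *pat-10* (standard error 0.16, n = 6, adjusted p = 0.97 from limma) and -0.03 for *tnc-2* (standard error 0.19, n = 6, adjusted p = 0.98 from limma).

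**Figure D2:**
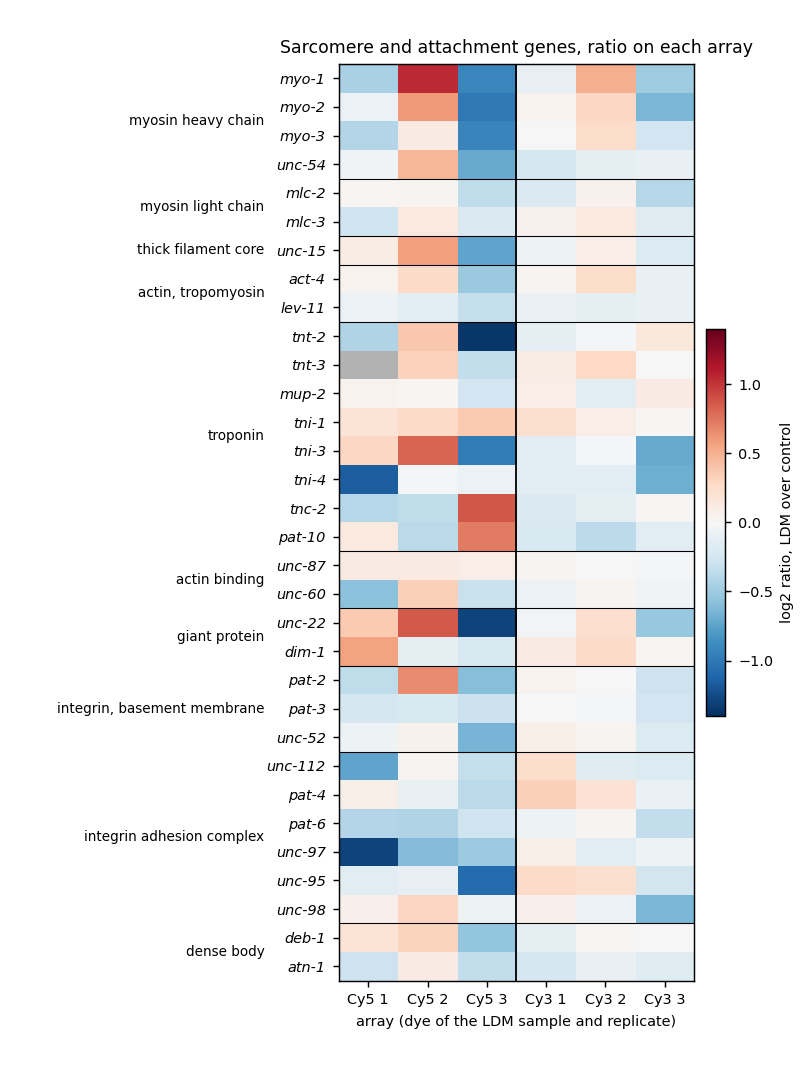
Log2 ratio of LDM over control of each tested member (lines, grouped by role) on each of the 6 arrays (columns, by the dye of the LDM sample and its replicate). Red stands for a higher and blue for a lower signal with the LDM, and grey for a marked spot; the column of Cy5 replicate 3 is blue for 28 of 32 members, and *tnc-2* and *pat-10* are its reddest cells.

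Markers of pharyngeal and of body wall muscle were both measured. The pharyngeal markers *myo-1*, *myo-2*, *tni-4*, *tnc-2* and *tnt-4*, of which the last is a troponin T gene outside the list of members, had a median fitted ratio of -0.07, and 4 of 5 were below 0. The 6 tested markers of body wall muscle, *myo-3*, *unc-54*, *tni-1*, *tnt-2*, *mup-2* and *pat-10*, had a median of -0.08, and 5 of 6 were below 0. On single arrays the medians lay further apart, at -0.10 for the pharyngeal and -0.49 for the body wall markers on Cy5 replicate 3, 0.28 and -0.08 on Cy3 replicate 2, and -0.50 and -0.04 on Cy3 replicate 3. The difference between both kinds of muscle was not tested.

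Actin filaments are bundled by the calponin-like protein UNC-87 and severed by UNC-60, the nematode ADF/cofilin. The brightest probe of *unc-87* gave 0.13, 0.12 and 0.09 with LDM in Cy5 and 0.04, 0.00 and -0.02 with LDM in Cy3. Its fitted ratio was 0.06 (standard error 0.11, n = 6, adjusted p = 0.914 from limma), but this probe had 36.8% and 29.5% of its pixels at the ceiling on Cy3 replicates 1 and 2. The unsaturated probes of *unc-87* gave other values, from -0.08 to 0.77 on the 6 arrays for 1 of them and from -0.99 to 0.77 on 5 arrays for the other. The fitted ratio was 0.19 with the mean of all probes, 0.32 with median centring and 0.37 with saturated spots left out. For *unc-60* the brightest of 3 tested probes gave -0.58, 0.33 and -0.31 with LDM in Cy5 and -0.08, 0.04 and -0.05 with LDM in Cy3. Its fitted ratio was -0.11 (standard error 0.15, n = 6, adjusted p = 0.870 from limma). The other tested probes of *unc-60*, for other transcripts of the gene, had mean ratios of -0.27 and -0.06.

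The giant proteins of the titin family span the filaments and carry kinase domains. Of these *ttn-1* had no unmarked spot and *unc-89*, the obscurin gene, had 1, so that neither was tested. Twitchin, the product of *unc-22*, regulates the pace of contraction and relaxation. Its ratios were 0.37, 0.86 and -1.29 with LDM in Cy5 and -0.04, 0.24 and -0.53 with LDM in Cy3. Among the members, *unc-22* had the largest SD between arrays, 0.76, and its fitted ratio was -0.06 (standard error 0.27, n = 6, adjusted p = 0.973 from limma). The immunoglobulin domain gene *dim-1*, listed with them, had ratios of 0.57, -0.13 and -0.21 with LDM in Cy5 and 0.11, 0.27 and 0.03 with LDM in Cy3, and a fitted ratio of 0.11 (standard error 0.14, n = 6, adjusted p = 0.866 from limma).

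At the membrane, PAT-2 and PAT-3 are the alpha and beta chains of the muscle integrin, and UNC-52 is perlecan. The ratios of *pat-3* were -0.23, -0.22 and -0.30 with LDM in Cy5 and 0.00, -0.02 and -0.26 with LDM in Cy3. They stayed within 0.30 of each other, the fitted ratio being -0.17 (standard error 0.11, n = 6, adjusted p = 0.716 from limma). The alpha chain gene *pat-2* ranged more widely, from -0.60 to 0.66, around -0.09. The brightest probe of *unc-52* gave -0.07, 0.06 and -0.65 with LDM in Cy5 and 0.08, 0.04 and -0.20 with LDM in Cy3, and a fitted ratio of -0.12 (standard error 0.14, n = 6, adjusted p = 0.833 from limma).

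Inside the cell the integrin tails recruit UNC-112 (kindlin), PAT-4 (integrin-linked kinase), PAT-6 (parvin) and UNC-97 (PINCH), together with the LIM domain protein UNC-95 and the zinc finger proteins of the M-line. This role had the lowest median fitted ratio of the roles with more than 1 tested gene, -0.19, and 5 of its 6 tested genes were below 0. It also held the 1 member with an unadjusted p under 0.05.

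The ratios of *unc-97* were -1.30, -0.61 and -0.51 on Cy5 replicates 1, 2 and 3 and 0.08, -0.16 and -0.07 on Cy3 replicates 1, 2 and 3. All 3 values with LDM in Cy5 lay below all 3 with LDM in Cy3. The fitted ratio was -0.43 (standard error 0.14, 95% interval -0.76 to -0.09, unadjusted p = 0.0189 and adjusted p = 0.419 from limma), and the dye term of the same fit was -0.38 (unadjusted p = 0.0311, adjusted p = 0.771 from limma). It was the 1 member with an unadjusted p under 0.05 for the dye. Its adjusted p ran from 0.150 to 0.999 as single arrays were left out, being lowest without Cy5 replicate 3 and highest without Cy3 replicate 2. With scale normalization between arrays the ratio of *unc-97* was -0.245 (adjusted p = 0.604 from limma), and *tni-4* then had the lowest adjusted p of the members, 0.506. The adjusted p of *unc-97* passed the threshold, at 0.00658 with a ratio of -0.64, where limma weighted the arrays, with weights gene by gene that ran from 0.22 for Cy5 replicate 3 to 4.26 for Cy3 replicate 2.

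The other adhesion genes were closer to 0. The ratios of *pat-6* were -0.41, -0.42 and -0.28 with LDM in Cy5 and -0.07, 0.04 and -0.34 with LDM in Cy3, below 0 on 5 of 6 arrays. Its fitted ratio was -0.25 (standard error 0.12, 95% interval -0.52 to 0.03, adjusted p = 0.574 from limma). The ratios of *unc-95* were -0.15, -0.12 and -1.08 with LDM in Cy5 and 0.27, 0.23 and -0.26 with LDM in Cy3, with -0.19 from the fit (standard error 0.17, n = 6, adjusted p = 0.797 from limma). For the rest, fitted ratios were -0.19 for *unc-112*, -0.06 for *unc-98* and 0.01 for *pat-4*, with array ratios between -0.74 and 0.33. The M-line gene *unc-96* was matched to no probe.

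Dense bodies are built on vinculin, from *deb-1*, and alpha-actinin, from *atn-1*. The ratios of *deb-1* were 0.19, 0.31 and -0.55 with LDM in Cy5 and -0.13, 0.01 and 0.01 with LDM in Cy3, with a fitted ratio of -0.03 (standard error 0.15, n = 6, adjusted p = 0.981 from limma). Those of *atn-1* were -0.29, 0.11 and -0.35 with LDM in Cy5 and -0.23, -0.10 and -0.17 with LDM in Cy3. With 5 of 6 arrays below 0, *atn-1* had a fitted ratio of -0.17, and its 95% interval of -0.45 to 0.11 included 0 (standard error 0.12, n = 6, adjusted p = 0.734 from limma).

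The members varied between arrays of the same comparison, though less than genes in general. The median SD of a member between arrays was 0.31, against 0.42 for all genes tested. Among the lists described below it was 0.29 for other muscle genes, 0.30 for hypodermis and cuticle and 0.32 for neuronal genes. The other marker lists had 0.36 to 0.73. The SDs of the 8 members with saturated spots, named below, ran from 0.06 for *unc-87* to 0.61 for *tnt-2*. The part of saturation in the lower SD of the members was not tested. Of the 31 members measured on every array, 14 spanned more than 1 between arrays, or 45.2%, against 57.7% of all such genes. On Cy5 replicate 3, 28 of 32 were below 0 and their median was -0.35, while 52.4% of all genes were below 0 there with a median of -0.04. On Cy5 replicate 2, 10 of 32 were below 0 and the median was 0.12. The medians of the members were -0.08 on Cy5 replicate 1 and 0.00, 0.02 and -0.17 on Cy3 replicates 1, 2 and 3. Cy5 replicate 3 was the lowest array of 19 of the 31 members measured on every array, or 61.3%, against 30.9% of all such genes. Cy5 replicate 2 was the highest array of 15 of them, or 48.4%, against 26.2%. These shifts were not particular to the members. The 89 other muscle genes described below had medians of -0.25 on Cy5 replicate 3, with 63 of 88 below 0, and 0.10 on Cy5 replicate 2. On Cy3 replicate 3 their median was -0.13.

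Cy5 replicates 2 and 3 were furthest apart for *unc-22*. The difference of the log2 ratios, replicate 2 minus replicate 3, was 2.15 for *unc-22*, 1.95 for *myo-1*, 1.80 for *tni-3*, 1.74 for *tnt-2*, 1.60 for *myo-2*, 1.31 for *unc-15*, 1.26 for *pat-2*, 1.17 for *unc-54* and 1.04 for *myo-3*. It was over 1 for these 9 of 32 members, or 28.1%, against 15% of 7070 genes of known length measured on both arrays. The same difference was -1.22 for *tnc-2* and -1.098 for *pat-10*, the 2 troponin C genes, and was over 1 in this direction for no other member. It stayed within 0.11 of 0 for *unc-87*, *tni-4*, *pat-3*, *dim-1*, *tni-1* and *unc-97*. Over the 32 members the ratios on these 2 arrays had r = -0.56, and over all genes tested r = -0.37. The points share their arrays, and genes are not independent replicates. The highest correlation between any 2 arrays over the members was 0.47, between Cy5 replicate 2 and Cy3 replicate 2.

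**Figure D3:**
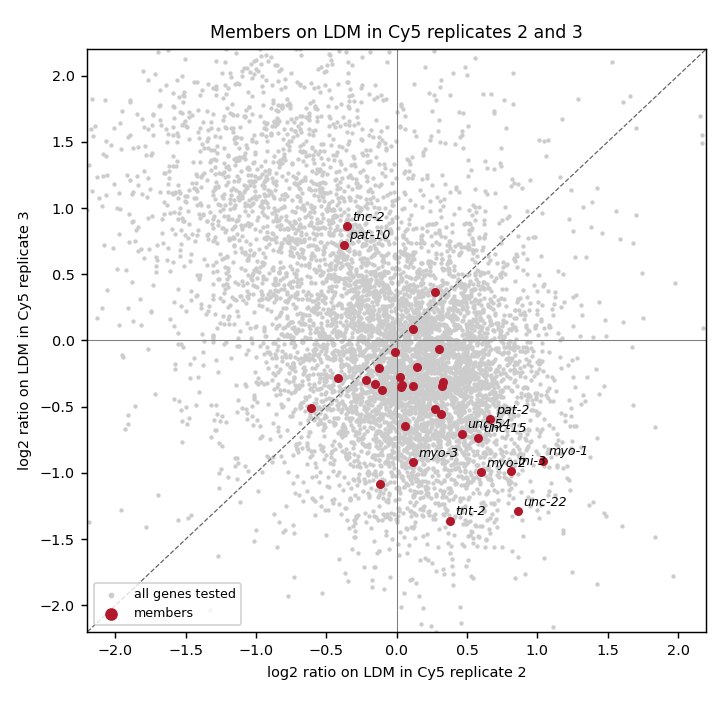
Log2 ratio of LDM over control on Cy5 replicate 2 (horizontal axis) against replicate 3 (vertical axis) for the 32 tested members (red) and all genes measured on both (grey); 130 of 7191 genes lie outside the axes, and the dashed line marks equal ratios. Members whose ratios on these arrays differ by more than 1 are named: *unc-22*, *myo-1*, *tni-3* and *tnt-2* lie to the lower right, with *tnc-2* and *pat-10* above 0 on replicate 3.

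Different probes of the same gene did not give the same ratio on these arrays. Of the 7 members with more than 1 tested probe, *unc-87* had the widest gap, since its probes ran from -0.99 to 0.64 on Cy5 replicate 3 and from 0.12 to 0.77 on Cy5 replicate 2. The 6 probes of *lev-11* ran from -0.83 to 0.24 on replicate 3 and from -0.15 to 0.88 on replicate 2. The brightest probe of *unc-87*, which stands for the gene in the test, was the closest to 0 on both arrays. For *atn-1* the brightest probe read -0.35 on replicate 3 and another -1.22. The 4 probes of *unc-52* were all below 0 on replicate 3, from -0.91 to -0.54, and all above 0 on replicate 2, from 0.06 to 0.74, and the 4 tested probes of *deb-1* showed the same pair of signs. The brightest probes of *unc-87* and *lev-11* were saturated in part, and the part of this in the gaps was not tested.

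**Figure D4:**
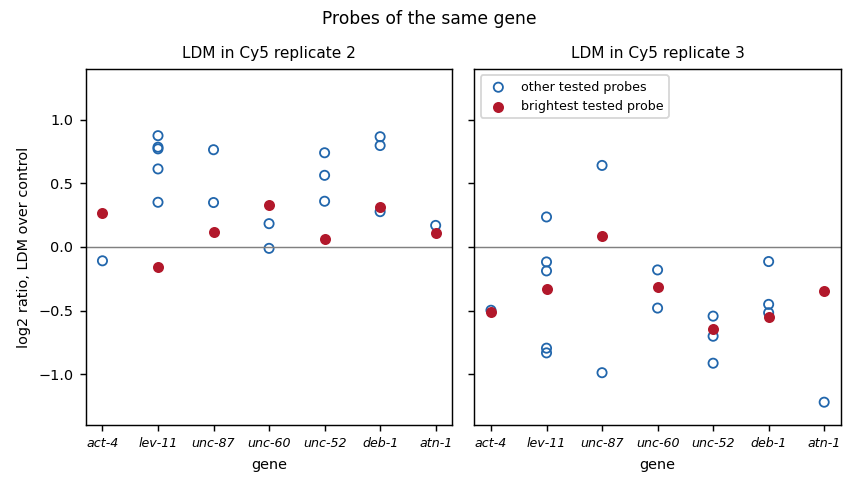
Log2 ratio of LDM over control of every tested probe of the 7 members with more than 1, on Cy5 replicate 2 (left) and replicate 3 (right). Filled points are the brightest probe, which stands for the gene, and open points the others; for *unc-87* they span -0.99 to 0.64 on replicate 3.

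Bright probes were common among the members. Of 32, 8 had a spot with 10% or more of its pixels at the ceiling of the scanner on at least 1 array, or 25%, against 3.99% of all genes tested. These were *mlc-2*, *mlc-3*, *act-4*, *lev-11*, *tnt-2*, *tni-4*, *pat-10* and *unc-87*. With saturated spots left out, 29 members could still be tested, none passed the adjusted threshold in limma, and 1 had an unadjusted p under 0.05, *unc-87*, with a ratio of 0.37 from another of its probes and an adjusted p of 0.435.

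Several marker lists of other tissues also stood away from 0 on single arrays. On Cy5 replicate 3, the median was -1.28 for 9 measured genes of pharynx gland and epithelium, -1.22 for 18 sperm genes, -1.06 for 15 genes of germline and oocyte and -0.38 for 19 genes of hypodermis and cuticle, beside -0.35 for the members and 0.41 for 12 neuronal genes. The 16 intestinal genes were near 0 there, at -0.09, as they were on Cy5 replicate 2, and stood at 0.37 on Cy3 replicate 3. On Cy5 replicate 2, the pharynx gland list was at 0.63 and the germline list at 0.53. Sperm genes were at -0.996 on Cy3 replicate 1 and 0.80 on Cy3 replicate 3, where the members stood at 0.00 and -0.17. Over all 6 arrays the median fitted ratio was -0.30 for sperm genes, with 17 of 18 below 0, and -0.16 for hypodermis and cuticle, with 16 of 19 below 0 and 5 lower at an unadjusted p under 0.05. Among these were *qua-1* (-0.51), *mlt-10* (-0.57), *dpy-7* (-0.41) and *bli-2* (-0.41), of the moult and the cuticle. Of 13 tested neuronal genes, *egl-3* was higher at 0.63 (unadjusted p = 0.000853, adjusted p = 0.134 from limma). Its dye term was 0.63 too. In no list did a gene pass the adjusted threshold in limma. By rank product, *msp-142* (-0.30) was called lower among 18 sperm genes and *vit-6* among 16 intestinal genes, against 0.488% of all genes. The fitted ratio of *vit-6* was -1.31 (adjusted p = 0.511 from limma). Its arrays ran from -3.06 on Cy3 replicate 1 to 1.93 on Cy3 replicate 3. The part of stage or tissue makeup in the ratios of the muscle genes was not tested.

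**Figure D5:**
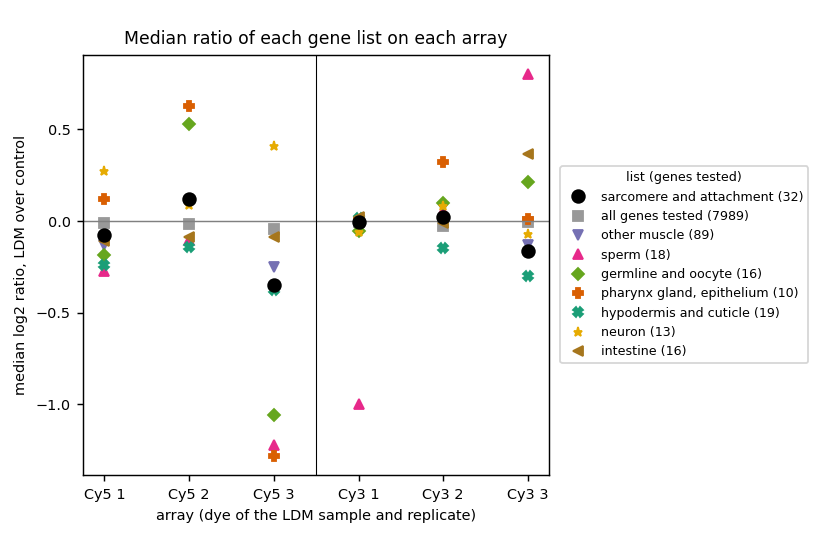
Median log2 ratio of LDM over control (vertical axis) of each gene list on each array (horizontal axis, by the dye of the LDM sample and its replicate), with the number of genes tested in the legend. The members (black circles) run from -0.35 to 0.12, and the lists of sperm, germline and pharynx gland lie between -1.28 and -1.06 on Cy5 replicate 3.

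No gene of a wider set of muscle genes passed limma either. Of 126 further genes of sarcomere proteins, muscle metabolism, excitation, attachment, basement membrane and muscle transcription, 120 had a probe and 89 were tested. With limma 0 were higher and 0 lower at the adjusted threshold, against 0.313% and 0.0626% of all genes. At an unadjusted p under 0.05, 1 was higher and 3 were lower, against 4.41% and 4.92%. The rank product called 2 higher and 0 lower, against 1.34% and 0.488%. These counts do not stand out from those shares. The median fitted ratio of the 89 was -0.06, against -0.03 for all genes. Of them 54 were below 0, or 60.7%, against 55.1%. The gene with the smallest p was *ccb-1*, the beta subunit of voltage-gated calcium channels. Its ratios were 0.88, 0.34 and 0.78 with LDM in Cy5 and 0.55, 0.89 and 0.81 with LDM in Cy3, above 0 on 6 of 6 arrays, and its fitted ratio was 0.71 (standard error 0.13, n = 6, adjusted p = 0.117 from limma). It was called higher by the rank product, as was *itr-1*, the inositol trisphosphate receptor. The brightest probe of *itr-1* had a fitted ratio of 0.22 (adjusted p = 0.699 from limma). The rank product took the lowest value among a gene's tested probes, and which probe gave the call of *itr-1* is not given here. The alpha2-delta subunit of the same channels, *unc-36*, had a ratio of -0.37 (standard error 0.16, unadjusted p = 0.0472, adjusted p = 0.526 from limma) and was below 0 on 6 of 6 arrays. The others with an unadjusted p under 0.05 were extracellular matrix genes, *epi-1*, a laminin alpha chain, at -0.43 and *him-4*, hemicentin, at -0.34, both lowest on Cy5 replicate 3.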

How the data were processed

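Each of the 6 arrays carried 23232 spots, of which 22490 were gene probes and 21383 of these (95.1%) were matched to a RefSeq gene by sequence name. The authors deposited scanner files with spot and background intensity in both channels, the percent of saturated pixels and the quality mark of the image software, used here as a score, and a series table of log2 ratios. The submitters' processing notes name limma, with its version not given in the sources used here. Following the methods, limma's loess within arrays, on unmarked gene spots, and Aquantile between arrays were applied, after a normexp background correction (offset 50) that the methods do not name. Ratios were turned to LDM over control.

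limma 3.58.1 in R 4.3.3 was fitted with terms for LDM and dye to 7989 genes, each represented by its brightest tested probe of 8860, with Benjamini-Hochberg adjustment over all of them. The rank product was written anew with 100 permutations and run over all 8860 tested probes. It called a gene when any of its probes had a percentage of false positives under 0.05. Both methods were tested on simulated data of 7989 genes. There limma found 16% of 50 genes given a log2 ratio of 0.6 and 68% of 50 given 1, and the rank product 8% and 72%. The limma fit made 4 false calls. The simulated noise was independent between arrays, with the same spread for a gene on every array and no dye effect. The real arrays differ in spread and are correlated, so these rates are not the power to find a change in these data. The number of arrays limits the precision. The arrays' samples are separate cultures per the methods.

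Members and lists were chosen with earlier results of these data known. Members were given array by array if they were among the 2 brightest of their role, had an unadjusted p under 0.05 or a rank product call, had 1 of the 5 largest ratios on an array, or belonged to the troponin I or light chain paralogs. Of other lists, up to 4 genes with an unadjusted p under 0.05 or a rank product call were named, by smallest p. The gene *itr-1* was added after its value was seen. Alternatives were no background correction or plain subtraction, median centring, print-tip loess, scaling between arrays, the series table, keeping marked spots, only bright probes, a fit without the dye, a replicate block, array weights, the mean of a gene's probes, the date of image analysis, and leaving out each array. Leaving out saturated spots, weights gene by gene and turned signs were added after seeing the data.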

Additional observations from a re-analysis of the deposited data

Results flagged for a closer look

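Among the 31 members measured on all 6 arrays, 2 had 1 array set apart from the other 5 by more than Dixon's 95% limit. Chance alone passes this limit for about 1 in 20 genes where all arrays have the same spread. That rate does not apply here. The interquartile range of all genes tested ran from 0.29 on Cy3 replicate 1 to 1.03 on Cy5 replicate 3. The share of all genes past the limit was not computed. For *tnc-2*, pharyngeal troponin C, the ratio was 0.86 on Cy5 replicate 3, and the next highest was 0.01, on Cy3 replicate 3. For *lev-11*, tropomyosin, the ratio was -0.33 on Cy5 replicate 3, and the next lowest was -0.15, on Cy5 replicate 2. Both lie on the array where most members were low. The *lev-11* spot had 19.7% of its pixels at the ceiling there, and the *tnc-2* spot had 0 on every array.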

How the results depend on the processing

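By limma, members called stayed at 0 in both directions under every alternative but array weights. By rank product they stayed at 0 under those for which it was run, which were the background corrections, the normalizations, the series table, marked spots kept, turned signs and each array left out. With the default weights, whose estimation stopped before it converged and which gave Cy5 replicate 1 a weight of 29.4 against 0.127 for Cy5 replicate 3, 2 members were called higher and 10 lower, with 1563 genes higher and 2071 lower. With weights gene by gene, 2 members were called lower, *unc-97* (-0.64) and *tni-4* (-0.604, adjusted p = 0.0169 from limma), beside 403 genes higher and 569 lower. Over all genes, 25 higher and 5 lower became 6 and 1 with the date of image analysis, which differs for Cy3 replicate 1 alone, and 2 and 0 or 0 and 0 with the sign of Cy5 replicate 2 or 3 turned. Genes lower were 3 with print-tip loess, marked spots kept or the replicate block, and 10 with scale normalization. By rank product, 107 higher and 39 lower became 185 and 79 with marked spots kept, 24 were lower with Cy5 replicate 2 turned, and 63 were higher with Cy5 replicate 3 turned, which also gave the members a median of 0.0815. Leaving out single arrays gave 5 to 43 genes higher and 0 to 16 lower by limma, and 61 to 94 higher and 23 to 34 lower by rank product.

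The methods do not say that arrays of the same replicate number are paired. Deviations of same-numbered arrays from their orientation mean correlated at -0.03, 0.41 and 0.23, and those of differently numbered arrays at -0.41 to 0.03. Whether the arrays are paired was not settled by these values. The replicate block (correlation 0.108) gave *unc-97* an adjusted p of 0.524 from limma and changed no call of a member.

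Of the 32 fitted ratios 13 kept their sign in every alternative computed per member, and 19, with fitted ratios from -0.15 to 0.11, did not. With median centring they were 0.244 for *act-4*, 0.144 for *lev-11*, 0.12 for *mlc-2*, 0.186 for *mlc-3*, 0.0332 for *mup-2*, 0.205 for *pat-10*, -0.0415 for *pat-4*, 0.0149 for *tnc-2*, 0.00985 for *unc-15* and 0.000462 for *unc-54*. With weights gene by gene they were 0.0911 for *act-4*, 0.0658 for *deb-1*, 0.0177 for *myo-2*, 0.0505 for *tni-3*, 0.0528 for *unc-15* and 0.186 for *unc-22*. With marked spots kept they were 0.0841 for *act-4*, 0.0333 for *mlc-3*, 0.0466 for *pat-10*, -0.0168 for *pat-4* and -0.00688 for *tnt-3*, and with the ratios of the series table used they were 0.0895, 0.0389, 0.053, -0.0314 and -0.00544. Print-tip loess gave 0.0104 for *mlc-3*, 0.0529 for *tnc-2* and -0.00786 for *tnt-3*. Scale normalization gave 0.0556 for *act-4* and 0.00236 for *mlc-3*. The date of image analysis gave 0.00437 for *act-4* and -0.0366 for *pat-4*. The mean of all probes gave 0.124 for *deb-1* and 0.0765 for *lev-11*, and leaving out saturated spots 0.134 for *lev-11* and 0.0847 for *pat-10*. Leaving out single arrays gave -0.086 to 0.11 for *act-4*, -0.108 to 0.109 for *deb-1*, -0.0141 to 0.179 for *dim-1*, -0.0508 to 0.0309 for *mup-2*, -0.359 to 0.128 for *myo-1*, -0.317 to 0.0826 for *myo-2*, -0.183 to 0.0919 for *pat-10*, -0.277 to 0.0378 for *pat-2*, -0.0453 to 0.0691 for *pat-4*, -0.241 to 0.0759 for *tnc-2*, -0.322 to 0.127 for *tni-3*, -0.186 to 0.143 for *unc-15*, -0.285 to 0.253 for *unc-22*, -0.268 to 0.0246 for *unc-54* and -0.127 to 0.0499 for *unc-98*. The cause of these shifts was not tested.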
